A study of Mus musculus with 17 samples.

Results

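The nuclear-encoded subunits of the oxidative phosphorylation machinery were followed in an acute myeloid leukaemia of C57BL/6 mice, in RNA of the bone marrow. Members were the gene symbols that begin with Ndufa, Ndufb, Ndufc, Ndufs or Ndufv and a digit, with Uqcr, with Cox and a digit from 4 to 8, or with Atp5. Symbols that contain -ps, a mark of pseudogenes, were left out. Of 56305 rows of the count tables, 101 matched the pattern, 13 were left out, and 88 rows with 84 different symbols remained. They comprised 38 symbols of complex I, 8 of complex III, 21 of complex IV and 17 of complex V. Ndufa4 and Ndufa4l2 were counted with complex IV, where the protein of Ndufa4 is now placed. No measured value entered this pattern, which was chosen with earlier results of these data known.

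All samples carried the heterozygous alleles Dnmt3aR878H/+ and Npm1cA/+, the first a point mutation of a de novo DNA methyltransferase and the second a form of nucleophosmin that stays in the cytoplasm. Controls had no further change given, and in the Mt1ko samples Mt1, which encodes the metal-binding protein metallothionein 1, had been knocked down with CRISPR-Cas9. The labels give whole bone marrow, with no sorted cell type, and no sex, age or number of animals. The study asked how transcription differed after the loss of Mt1.

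Oxidative phosphorylation passes electrons from NADH and succinate through complexes I to IV of the inner mitochondrial membrane to oxygen, and complex V (ATP synthase) uses the proton gradient that this builds to make ATP. Complexes I, III, IV and V are assembled from proteins of 2 genomes: a small set of core proteins is encoded by mitochondrial DNA, and the rest, described here, by nuclear genes. Leukaemic stem and blast cells are known for their reliance on this pathway, and most of its nuclear subunits are expressed in every cell with mitochondria, while a few have isoforms largely restricted to muscle or testis.

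Total RNA was sequenced in 17 libraries, 8 labelled control and 9 labelled Mt1ko, with 27124722 to 38645072 gene counts each. Each title says technical replicate. The authors' second table sums the libraries into 6 samples of 64247249 to 106407001 counts: control 1-3, 7-9 and 14-15, and Mt1ko 4-6, 10-12 and 16-18, named by the libraries they join. These 6 samples were compared, and as nothing says that they came from separate animals, p-values measure only how far these samples spread, and that may be a technical spread. Mt1 stood at 352.5, 440.9 and 359.4 CPM (counts per 1000000 counts) in the control samples and at 172.0, 67.8 and 80.7 CPM in the Mt1ko samples, where library 6, labelled Mt1ko, held a control-like 326.2 CPM against 41.8 to 87.2 CPM in the other 8. Mt1ko sample 10-12 stood apart in its share of mitochondrial ribosomal RNA. This took 21.9% to 30.2% of counts in its 3 libraries, and 4.58% to 11.2% in the other 14. The next highest were libraries 9 and 8, both of control sample 7-9, at 11.2% and 8.77%. Of 10 monocyte and macrophage markers, 9 had at least 10 CPM in control. Lyz2 was at 2238 to 5644 CPM and Itgam at 2262 to 3624 CPM over the 6 samples. Fcgr1 was low, at 0.406 CPM in control sample 7-9 to 8.77 CPM in Mt1ko sample 4-6.

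None of the 76 subunits that could be tested passed the test between Mt1ko and control. In edgeR's quasi-likelihood test with Benjamini-Hochberg adjustment over all 16666 genes tested, 0 of 76 passed an adjusted p of 0.05, where 0.0% of all genes did. At an unadjusted p under 0.05 the count was also 0 of 76, against 1.03% of all genes (171). DESeq2 called 0 members and 1 gene of 16484 (0.00607%), which was Mt1, and limma-voom called 0 members and 0.0% of all genes. For most members the interval was not wide: the 95% interval of the fold change lay within a 2-fold difference in either direction for 69 of 76 (90.8%), where this held for 45.3% of all genes and for 91.8% of the 6939 genes with a mean log2 CPM of at least 4. It lay within 1.5-fold for 46 of 76.

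The log2 fold changes lay close to 0. They were above 0 in 49 members and below 0 in 27, so 64.5% were higher in Mt1ko, where 48.3% of all genes were. The median over members was 0.04 on the log2 scale, against -0.01 over all genes. Complex V had 13 of 17 higher (median 0.07), complex I 23 of 36 (median 0.03), complex IV 9 of 15 (median 0.03) and complex III 4 of 8 (median -0.00). The split turned with scaling and with single samples. With total counts in place of TMM factors, 13 of 76 were higher and the median was -0.07, while the median of all genes moved to -0.12. Without Mt1ko sample 4-6, 34 of 76 were higher with a median of -0.02, and without control sample 14-15 the count was 38 of 76. The second index sequence in the library descriptions splits the libraries in another way. Within its first value (5 control and 3 Mt1ko libraries), the median difference of members in unscaled CPM was -0.01, within its second (3 control and 4 Mt1ko) it was -0.20 beside -0.30 for all genes, and its remaining value held Mt1ko libraries only. The difference within the second was 0.08 without libraries 10 to 12, with 1 Mt1ko library left.

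**Figure D1:**
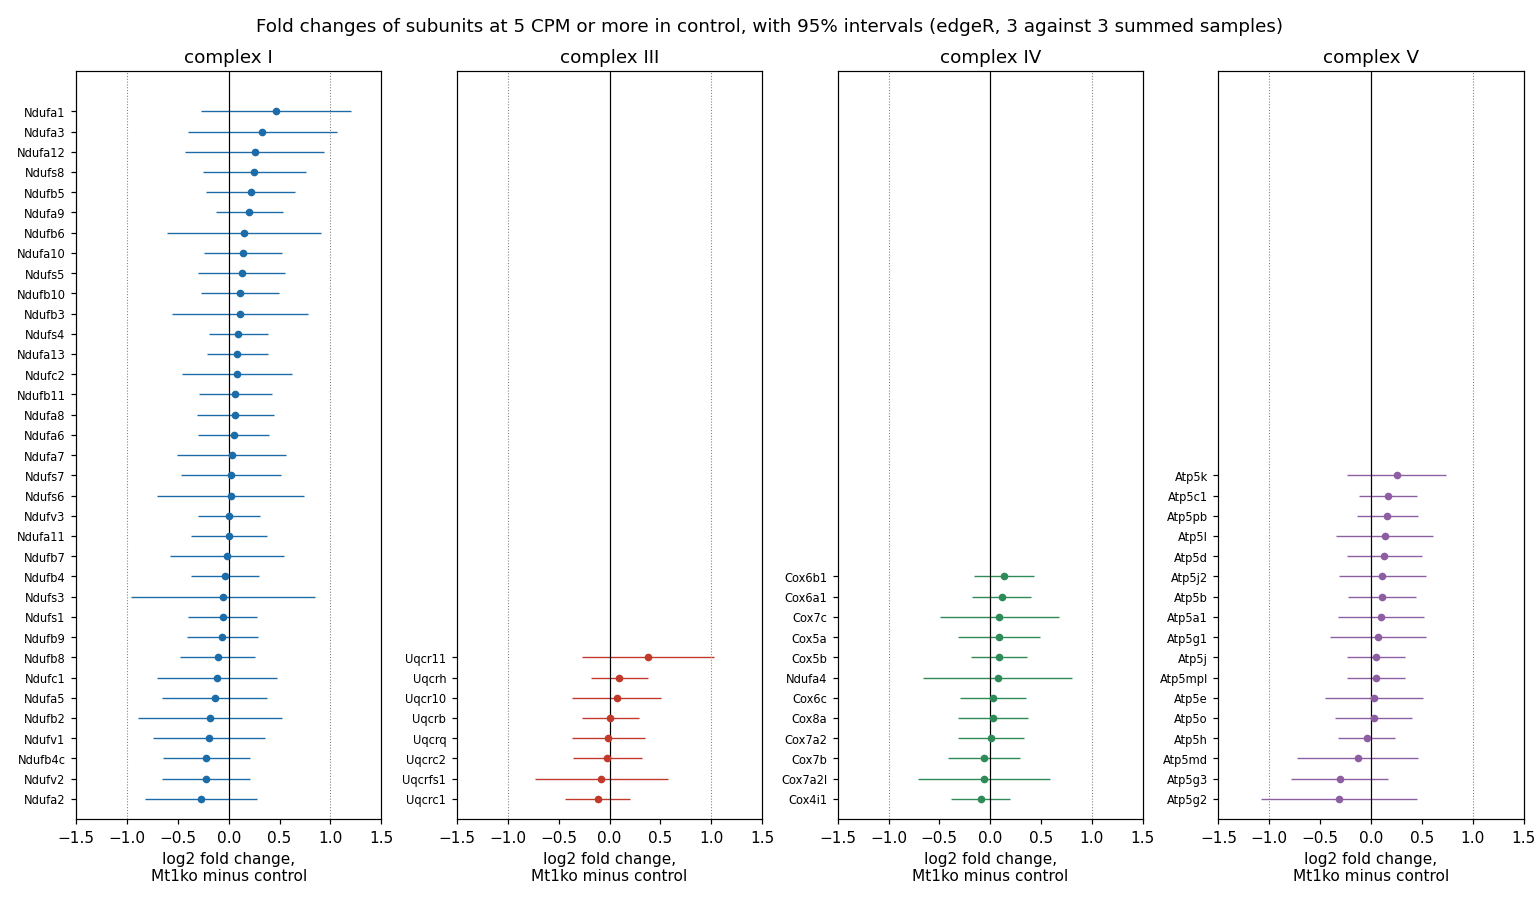
Log2 fold changes (Mt1ko minus control, x axis) of tested subunits with at least 5 CPM in control, by complex, with bars for 95% intervals from edgeR on 3 against 3 summed samples. Dotted lines mark a 2-fold difference. Every bar crosses 0, and the points gather around it in all 4 complexes.

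The complexes differed in level. To compare genes, the control mean was divided by the length of the annotated coding transcript, in kilobases. The median was 33.5 CPM per kilobase in complex I, 49.3 in complex IV, 65.5 in complex III and 71.5 in complex V. Within complex I tested members ran from 5.02 (Ndufb2, an accessory subunit) to 87.7 CPM per kilobase (Ndufb4c, whose reads cannot be told from those of Ndufb4, below). Complex III ran from 19.5 (Uqcrc2, one of its large core proteins) to 191.1 (Uqcrb, a small subunit beside cytochrome b). Complex V ran from 8.23 (Atp5g1) to 240.9 (Atp5h, the d subunit of the stator stalk). The widest range was in complex IV, from 0.399 (Cox6b2, the testis isoform) to 378.8 CPM per kilobase (Cox6c, a small membrane subunit). Transcript lengths differ between isoforms, so these levels depend on the annotation. In control, 72 of 76 tested members had at least 10 CPM. The 84 symbols together took 0.424% of control counts, of which complex V held 0.154% and complex I, with more than 2 times as many genes, 0.129%.

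**Figure D2:**
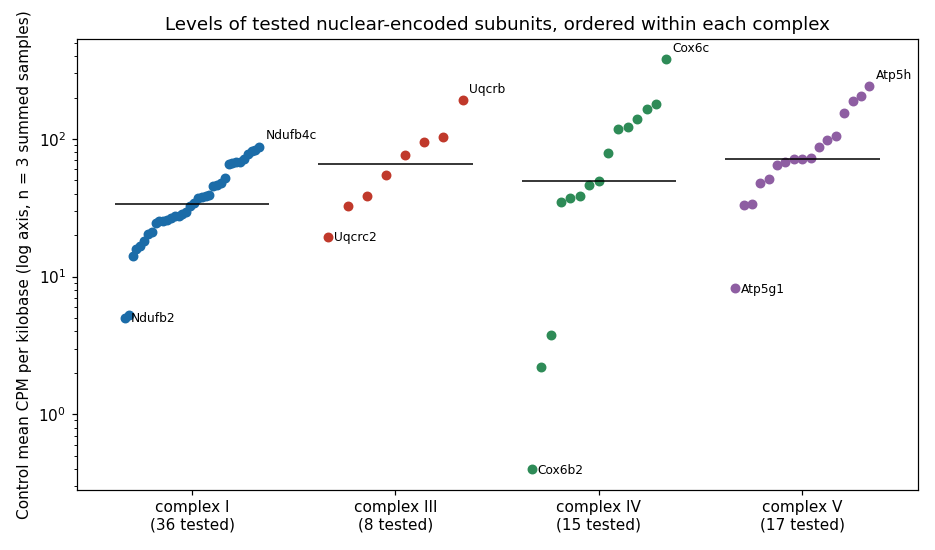
Control mean of each tested subunit in CPM per kilobase of transcript (log axis, n = 3 summed samples), ordered within each complex, with a bar at the median. Complex I has the lowest median (33.5) and complex V the highest (71.5), while complex IV spans from Cox6b2 to Cox6c.

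Complex I takes electrons from NADH. Of its 7 nuclear core subunits, which carry the flavin and the iron-sulfur clusters, 3 were higher and 4 lower in Mt1ko, with a median log2 fold change of -0.06. Values are given below for control samples 1-3, 7-9 and 14-15 in that order, then for Mt1ko samples 4-6, 10-12 and 16-18, in TMM-scaled CPM. Ndufv1, which binds NADH and the flavin, stood at 26.1, 47.2 and 29.0 CPM in control and at 28.9, 29.1 and 31.5 CPM in Mt1ko. Control sample 7-9 was high, in all 3 of its libraries (46.4, 52.3 and 50.8 CPM of all counts, against 19.7 to 32.9 in the other 5 control libraries), and the rest overlapped. The fold change of Ndufv1 was -0.20 ± 0.24 (SE, log2). Ndufv2, its partner in the NADH-oxidizing arm, was at 41.9, 44.1 and 45.4 CPM in control and 46.1, 29.1 and 37.1 CPM in Mt1ko. The Mt1ko values lay both above and below the narrow control range (43.8 ± 1.74 CPM, SD, n = 3), and the log2 fold change was -0.23 ± 0.19 (SE, unadjusted p = 0.258, edgeR adjusted p = 1.00). Ndufs1, Ndufs3 and Ndufs8 had log2 fold changes of -0.06 ± 0.14, -0.06 ± 0.39 and 0.25 ± 0.22 (SE, n = 3 each). Ndufs3 was the least abundant core subunit by count, at 3.52 to 6.97 CPM over the 6 samples.

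Among the accessory subunits, which surround the core, Ndufa1 had the smallest p of those higher in Mt1ko. It stood at 13.2, 11.7 and 10.9 CPM in control and at 14.7, 23.9 and 10.8 CPM in Mt1ko. Sample 10-12 was far above the controls, 4-6 was just above and 16-18 just below them, so the groups overlapped. Its log2 fold change was 0.46 with a 95% interval of -0.27 to 1.20 (unadjusted p = 0.183, edgeR adjusted p = 1.00), and 0.09 without sample 10-12. Ndufa9, which lies at the joint of the 2 arms of the complex, was at 38.9, 35.2 and 32.5 CPM in control and 41.1, 43.5 and 38.1 CPM in Mt1ko. Mt1ko sample 16-18 lay just under control sample 1-3, and the other 2 lay above all controls (log2 fold change 0.20 ± 0.14, SE, unadjusted p = 0.193). Within sample 10-12, however, the 3 libraries had 39.9, 8.07 and 66.4 CPM of all counts, so its sum joins very unequal libraries.

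Ndufb4c and Ndufb4 share an identical stretch of 390 bases, the whole length of Ndufb4c, which GENCODE vM21 annotates as a processed pseudogene of Ndufb4 on chromosome 15 (GRCm38 chr15:73809507-73809896, minus strand). Ndufb4 itself, on chromosome 16 (GRCm38 chr16:37647170-37654453, minus strand), encodes an accessory subunit of the membrane arm. The deposited tables divided the reads almost evenly, with 54.0% of the pair's control counts given to Ndufb4c, and the sources used here do not say how. Ndufb4c was at 30.9, 34.2 and 37.5 CPM in control and 27.7, 24.6 and 35.7 CPM in Mt1ko. It was the complex I member with the second smallest p among those lower (log2 fold change -0.22 ± 0.18, SE), while Ndufb4 was at 26.4 to 29.8 CPM in all 6 samples (-0.04 ± 0.15). In libraries 11 and 12 the division went opposite ways, with 45.1 and 4.17 CPM of all counts for Ndufb4 and 9.63 and 35.6 CPM for Ndufb4c, so neither level is certain alone.

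Complex III moves electrons from quinol to cytochrome c. Uqcrfs1, its Rieske iron-sulfur protein (GRCm38 chr13:30540308-30545362, minus strand), differed widely between samples: 55.6, 30.2 and 47.7 CPM in control, and 50.2, 29.1 and 46.7 CPM in Mt1ko. One sample of each group, 7-9 and 10-12, was at about 30 CPM and the other 4 were between 46.7 and 55.6 CPM. The group means were nearly the same (44.5 ± 13.0 and 42.0 ± 11.3 CPM, SD, n = 3 each), with a log2 fold change of -0.08 ± 0.28 (SE) that was 0.12 without sample 10-12.

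Uqcr11, a small accessory subunit, was the reverse case. It was at 26.7, 42.9 and 32.0 CPM in control and at 33.5, 61.9 and 36.8 CPM in Mt1ko, so samples 7-9 and 10-12 were the highest of the 6. The groups overlapped and the log2 fold change of 0.38 ± 0.28 (SE, unadjusted p = 0.214, edgeR adjusted p = 1.00) was 0.06 without sample 10-12. Uqcrh, the hinge protein that helps dock cytochrome c1, was the 1 tested member whose groups did not overlap (1.32% of members, where groups did not overlap in 7.1% of all genes, 2.74% with Mt1ko higher and 4.36% with Mt1ko lower). Its values were 53.7, 52.2 and 49.8 CPM in control and 57.6, 54.9 and 53.8 CPM in Mt1ko. The gap between the groups was narrow, the log2 fold change was 0.10 with a 95% interval of -0.18 to 0.37, and it was -0.02 when total counts replaced the TMM factors.

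Uqcrc1 and Uqcrc2, the large core proteins on the matrix side, were lower by little. Uqcrc1 was at 67.2, 66.1 and 57.9 CPM in control and 62.0, 51.8 and 62.5 CPM in Mt1ko (-0.12 ± 0.14 on the log2 scale), and Uqcrc2 was between 33.8 and 40.3 CPM in all 6 samples (-0.02 ± 0.15). Uqcrb, Uqcrq and Uqcr10 had log2 fold changes of 0.01, -0.01 and 0.07. The tables list Uqcrc1, and likewise Ndufs3 and Atp5a1, under a second identifier whose counts were identical in 17 of 17 libraries. One row of each was used, and if reads had been shared between the 2 rows, these levels are understated.

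Complex IV, cytochrome c oxidase, reduces oxygen, and its nuclear subunits surround 3 catalytic proteins of mitochondrial DNA. Cox6a1, the isoform of subunit VIa found outside striated muscle, was at 78.5, 79.4 and 83.2 CPM in control and 96.7, 79.9 and 84.2 CPM in Mt1ko. Mt1ko sample 4-6 stood well above the controls and 16-18 just above, and the log2 fold change was 0.11 ± 0.13 (SE), or -0.00 with total counts in place of TMM factors. Cox6b1, which faces the intermembrane space, was at 53.9, 46.7 and 47.1 CPM in control and 52.8, 55.4 and 53.9 CPM in Mt1ko. The groups overlapped at control sample 1-3 alone (log2 fold change 0.13 ± 0.13, SE, unadjusted p = 0.325). Cox4i1, the largest nuclear subunit, was at 141.1, 134.0 and 131.8 CPM in control and 138.3, 112.8 and 129.8 CPM in Mt1ko. Sample 10-12 was the lowest here too, and the log2 fold change was -0.09 ± 0.12 (SE).

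Cox7a2l, counted here with complex IV, had nearly the pattern of Uqcrfs1. Its values were 47.0, 28.0 and 46.2 CPM in control and 45.2, 26.0 and 44.7 CPM in Mt1ko. Samples 7-9 and 10-12 were low and the other 4 lay within 44.7 to 47.0 CPM, so the groups overlapped fully (log2 fold change -0.06 ± 0.28, SE). Ndufa4, chosen after its values were seen, was at 19.6, 13.1 and 22.5 CPM in control and 24.1, 12.3 and 21.6 CPM in Mt1ko, with the same 2 samples lowest. In all 3 libraries of sample 7-9 Cox7a2l was at 27.3 to 31.1 CPM of all counts, below the 45.3 to 51.4 CPM of the other 5 control libraries.

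The muscle and testis isoforms and the pseudogenes among the members other than Ndufb4c were scarce or without counts, and in most sets the common isoform took nearly the whole count in control. Cox4i1 held 99.96% of the Cox4i counts, Cox6a1 98.2% of the Cox6a counts and Cox6b1 99.6% of the Cox6b counts. Cox4i2, the lung isoform, had 14 counts in 1 of 17 libraries. Cox7b2, Cox8b and Cox8c, and Cox6c2 and Ndufs6b, which GENCODE vM21 annotates as processed pseudogenes, had 0 counts in all 17 libraries, which allows up to 0.00546 CPM over all counts (3 counts, counting error only). Ndufa11b, a processed pseudogene too (3 libraries), and Ndufa4l2 (2 libraries) also had too few counts to be tested. Together these 8 symbols are the members that did not pass the filter on low counts.

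Cox6a2, the striated muscle isoform of subunit VIa, was detected in 13 libraries at up to 5.24 CPM. Its summed values were 2.98, 0.135 and 1.38 CPM in control and 2.12, 0 and 1.85 CPM in Mt1ko. Sample 10-12 had no count and 7-9 had 14 counts, the 2 lowest of the 6, and the log2 fold change of -0.18 had a 95% interval of -4.07 to 3.71. Cox7a1, the muscle isoform of subunit VIIa, stood at 1.09, 1.68 and 1.65 CPM in control and 0.572, 0 and 1.21 CPM in Mt1ko, again with no count in sample 10-12, where 3 counts, the limit that a count of 0 allows, would be 0.0321 CPM of all counts. Mt1ko sample 16-18 lay above control sample 1-3, so the groups overlapped (log2 fold change -1.31 ± 1.49, SE, unadjusted p = 0.405). By symbol, Cox7a2 held 44.4%, Cox7a2l 53.6% and Cox7a1 1.98% of the Cox7a counts in control. Cox7a2l is included by its symbol and is not taken here as an isoform of subunit VIIa. The isoforms Cox7a2 and Cox7a1 had 8763 and 391 control counts.

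Complex V has a catalytic head, a rotating ring and stalks that join them. The catalytic β subunit gene Atp5b had the highest count of all members, at 408.7, 324.9 and 357.4 CPM in control and 438.2, 361.4 and 376.7 CPM in Mt1ko. Each Mt1ko sample exceeded control sample 7-9, and the ranges overlapped (log2 fold change 0.11 ± 0.14, SE). Atp5c1, the γ subunit that turns inside the head, was at 121.6, 109.7 and 113.6 CPM in control and 138.5, 133.4 and 116.3 CPM in Mt1ko. Mt1ko samples 4-6 and 10-12 were above all controls and 16-18 was within their range (log2 fold change 0.17 ± 0.12, SE, unadjusted p = 0.205, edgeR adjusted p = 1.00). Atp5pb, the b subunit of the stator stalk, was at 149.0, 134.7 and 136.4 CPM in control and 175.3, 152.4 and 141.1 CPM in Mt1ko, with 16-18 again inside the control range (0.16 ± 0.13).

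The members of complex V with the lowest fold changes were both genes of the c ring. Atp5g1, Atp5g2 and Atp5g3 encode the same mature c subunit behind different import sequences. Over the last 75 codons of the reading frame of a coding transcript, the encoded residues differed at 0 positions between any of the 3 genes, while the bases differed at 34 positions between Atp5g1 and Atp5g2 (84.9% identity), 45 between Atp5g1 and Atp5g3 (80.0%) and 48 between Atp5g2 and Atp5g3 (78.7%). The first 90 of these 225 coding bases are shown, from GENCODE vM21 transcripts, because they let reads of genes with 1 protein product be told apart. Capitals mark the 22 positions that are not shared by all 3 genes.
Atp5g1: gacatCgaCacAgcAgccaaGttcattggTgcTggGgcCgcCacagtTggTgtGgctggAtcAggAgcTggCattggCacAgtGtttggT
Atp5g2: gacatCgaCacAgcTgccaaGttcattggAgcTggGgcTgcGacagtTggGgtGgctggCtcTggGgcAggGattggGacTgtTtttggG
Atp5g3: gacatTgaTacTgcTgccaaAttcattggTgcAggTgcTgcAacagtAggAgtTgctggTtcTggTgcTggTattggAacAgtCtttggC

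Atp5g3 (GRCm38 chr2:73908447-73911326, minus strand) had the smallest p of all 76 members. It stood at 28.4, 23.0 and 20.0 CPM in control and at 22.1, 16.8 and 18.8 CPM in Mt1ko. Mt1ko samples 10-12 and 16-18 were below every control and sample 4-6 was between them, with a log2 fold change of -0.31 and a 95% interval of -0.79 to 0.17 (unadjusted p = 0.175, edgeR adjusted p = 1.00). Atp5g2 was at 21.4, 23.4 and 14.5 CPM in control and 23.1, 10.4 and 14.3 CPM in Mt1ko, with wide overlap (-0.31 ± 0.33, SE). The 3 libraries of sample 10-12 had 0, 18.8 and 6.74 CPM of all counts. The log2 fold change kept its sign without that sample, at -0.08, and was 0.11 with library 6 left out as well. Atp5g1 was at 18.3 to 27.6 CPM in the 6 samples (0.07 ± 0.20). The 3 genes shared the control counts almost equally, at 33.2%, 30.6% and 36.2% for Atp5g1, Atp5g2 and Atp5g3. The pseudogene Gm10175 matches Atp5g2 over 645 bases at 100% identity and had 11.1% of its count.

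Of the rest of complex V, all of which overlapped between groups, Atp5k, a membrane subunit involved in dimers of the synthase, had the highest fold change (0.25 ± 0.21, SE, log2). Atp5h and Atp5md were below 0 (-0.04 and -0.13), and the remaining 8, among them Atp5a1 (the α subunit of the head, 0.10), Atp5d (0.13) and Atp5o (the stator subunit that holds the head, 0.03), were above 0. Atp5l, another membrane subunit, has the pseudogene Gm10221, identical over 309 bases, which held 43.4% as many counts. In all, 15 members had a copy elsewhere in the transcriptome with at least 98% identity over at least 100 bases.

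The members highest per kilobase in complexes III, IV and V varied by less than 1.5-fold over the 6 samples. Ndufb4c, the highest of complex I, varied more and is described above. Cox6c was at 238.6, 240.2 and 209.8 CPM in control and 260.9, 201.8 and 240.6 CPM in Mt1ko (0.03 ± 0.14, log2, SE). Uqcrb was at 94.4 to 108.7 CPM in the 6 samples (0.01 ± 0.12), and Atp5h was at 138.3 to 161.0 CPM (-0.04 ± 0.12). The groups overlapped in all 3 genes. Ndufb2, the lowest of complex I, was at 10.5, 14.5 and 11.3 CPM in control and 12.1, 7.01 and 12.9 CPM in Mt1ko, with sample 10-12 the lowest (-0.18 ± 0.31).

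Over the 6 samples, 40 of 76 members varied by less than 1.5-fold from lowest to highest, on the scale of CPM + 1, and 7 varied by 2-fold or more. Under 1.5-fold were 14 of 36 in complex I, 6 of 8 in complex III, 9 of 15 in complex IV and 11 of 17 in complex V. The ratio ran from 1.12 in Ndufb4 to 3.98 in Cox6a2. Examples of even expression over the sums, chosen after their values were seen, are Ndufv3 and Cox5b. Ndufv3, an accessory subunit of the NADH-oxidizing arm, was at 58.3 to 65.3 CPM in control and 55.1 to 65.1 CPM in Mt1ko. Cox5b, a zinc-binding subunit of complex IV, was at 96.5 to 108.6 CPM in control and 100.2 to 113.8 CPM in Mt1ko. Even sums could join uneven libraries. In libraries 10, 11 and 12, Ndufv3 had 29.2, 66.2 and 43.4 CPM of all counts and Ndufb4 17.9, 45.1 and 4.17 CPM. Cox5b was more even there, at 98.5, 102.5 and 89.2 CPM. Cox8a, the form of subunit VIII found outside muscle, was at 85.1 to 103.3 CPM in control and 80.3 to 104.2 CPM in Mt1ko. Cox7b, another small subunit of complex IV, was at 115.5 to 126.4 CPM in control, and at 131.2, 94.2 and 125.2 CPM in Mt1ko, where sample 10-12 was again the lowest (-0.06 ± 0.15).

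The 6 samples differed among themselves in ways that the groups did not follow. Relative to the control mean, on the log2(CPM + 1) scale, the median member deviated by 0.03, 0.05 and -0.08 in the control samples and by 0.10, -0.03 and 0.02 in the Mt1ko samples. Mt1ko sample 4-6 was the highest of the 6 in 24 of 76 members, where it was highest in 17.3% of all genes, and control sample 14-15 was the lowest in 18 members (23.7%, against 12.3% of all genes). Mt1ko sample 10-12 was the lowest in 31 members and the highest in 23, which is 40.8% and 30.3% of them, beside 38.6% and 27.6% of all genes.

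The complexes did not share the deviation of sample 10-12. Its median was 0.15 in complex I, -0.01 in complex III, -0.26 in complex IV and -0.00 in complex V, with the quartiles of complex I at -0.18 and 0.30 and those of complex IV at -0.51 and -0.03. The sign of complex I depended on scaling: with total counts in place of TMM factors the 4 medians were -0.14, -0.30, -0.47 and -0.29, beside -0.31 for all genes. The 7 core subunits of complex I had a median of -0.18 with TMM factors, on the other side of 0 from the complex as a whole. The small accessory subunits Ndufa1 and Ndufa3 of complex I were high there, as were Ndufa12 (28.0 CPM, against 13.2 to 21.4 in the other 5) and Ndufb6 (17.8 CPM, against 8.56 to 12.1), both chosen after their values were seen. Ndufa3, one of the 3 members with the widest range over the 6 samples, was at 17.1, 23.3 and 13.0 CPM in control and 15.9, 30.9 and 20.3 CPM in Mt1ko. Its log2 fold change was 0.33 ± 0.31 (SE). Ndufa2, Ndufb2 and Cox7c, chosen after their values were seen, were low in sample 10-12, at 26.0, 7.01 and 17.3 CPM against at least 39.6, 10.5 and 24.9 CPM in the other 5.

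Control sample 7-9 and Mt1ko sample 10-12, a pair chosen after the values were seen, were set beside the other 4 samples. Both were above the other 4 in 17 of 76 members (22.4%, against 15.6% of all genes) and both below in 13 (17.1%, against 20.1%), shares not far from those of all genes. The sides differed by complex: complex I had 13 members with both above and 5 with both below, among them the core subunit Ndufs1, and complex IV had 0 above and 6 below, Cox6a2, Cox7a2l, Cox7b, Cox7c, Cox8a and Ndufa4. In complex III, Uqcr11 and Uqcrc2 were above and Uqcrfs1 was below. In complex V, Atp5j2 and Atp5k were above and Atp5a1 was below.

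Markers of several cell types also set these 2 samples apart. The summed level of the 10 mast cell and basophil markers was 806.6 CPM in 7-9 and 5157 CPM in 10-12, against 161.7 to 658.6 CPM in the other 4, with the mast cell protease gene Cpa3 at 224.1 and 1564 CPM. Mcpt8 (at most 0.290 CPM) and Prss34 (0 CPM) were low in every sample. The summed level of the 10 neutrophil markers was lowest in the same 2, at 219.3 and 189.1 CPM against 274.3 to 357.9 CPM. Not all of these markers were low there. Mmp8 was within the range of the other 4 (188.3 and 170.6 CPM, against 164.4 to 216.5). So was S100a8 (9.80 and 11.1 CPM, against 8.46 to 16.8). Mpo was highest in 7-9, at 5.84 CPM, and stood at 0 CPM in 10-12. Among single markers, chosen after their values were seen, the granule protease genes Elane (6.71 and 1.37 CPM, against 27.0 to 80.0) and Prtn3 (8.54 and 6.06 CPM, against 27.0 to 45.7) were lowest there, as were the platelet chemokine gene Pf4 (47.1 and 31.5 CPM, against 112.8 to 213.9) and the monocyte gene Ly6c2 (245.9 and 223.8 CPM, against 395.5 to 503.1). Whole lists did not all follow: the 7 megakaryocyte and platelet markers summed to 106.5 CPM in 7-9, the lowest, and 319.5 CPM in 10-12, the highest, and the 10 monocyte and macrophage markers to 10794 and 8891 CPM, against 7503 to 9201 CPM. In bulk RNA, fewer cells of a type and less RNA per cell cannot be told apart. The part of these markers, and that of RNA quality in the 2 samples, in the levels of the subunits was not tested.

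**Figure D3:**
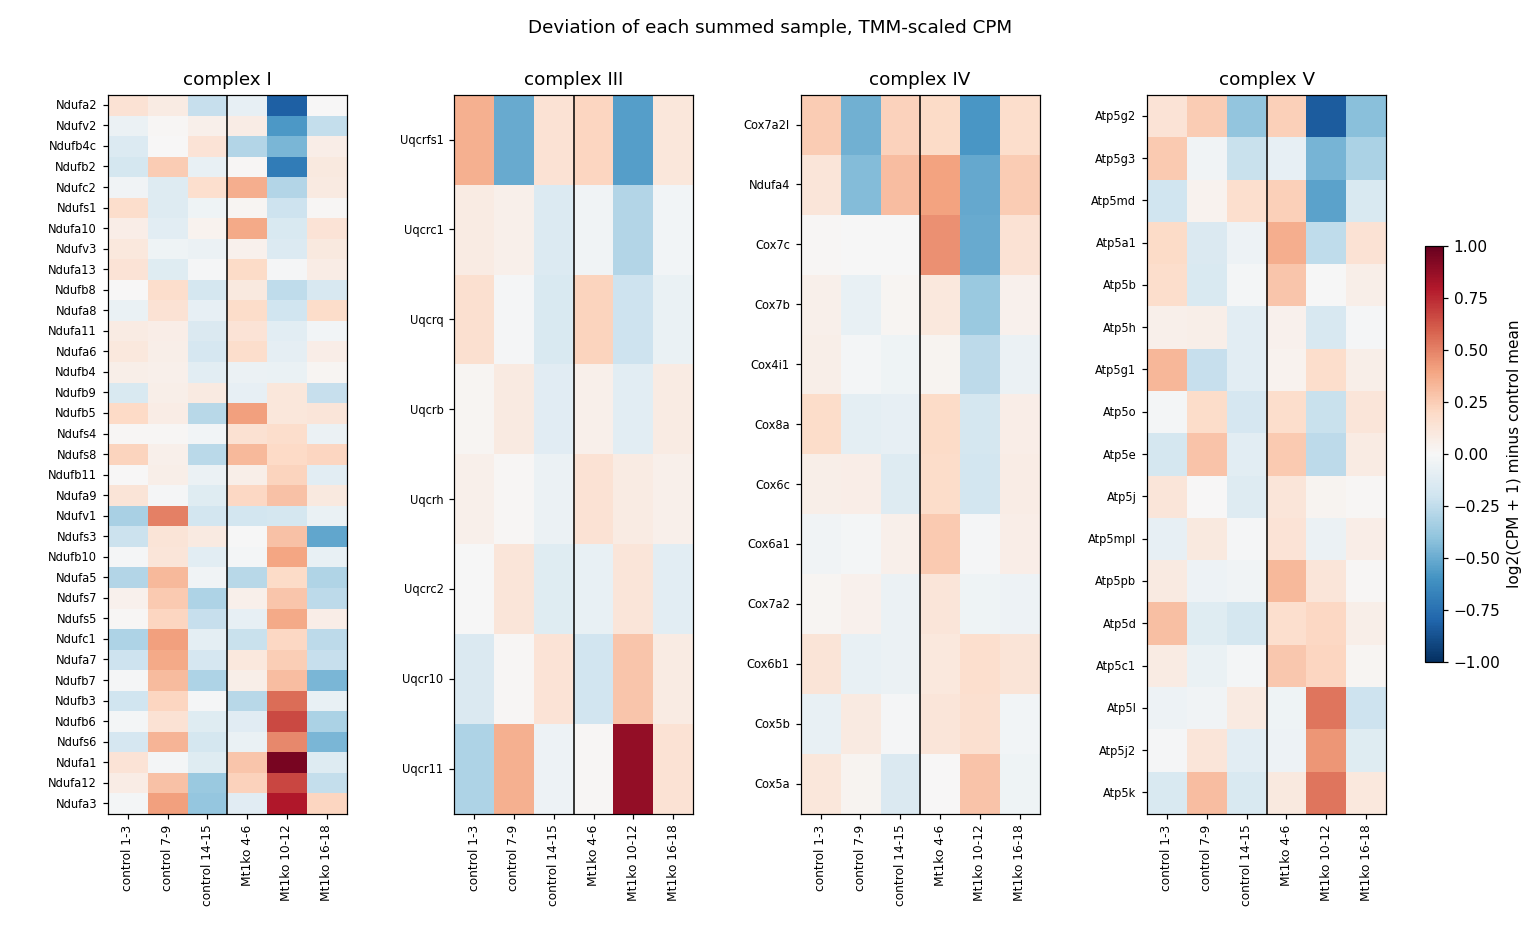
Each cell gives log2(TMM-scaled CPM + 1) of a subunit (with at least 5 CPM in control) minus its control mean, in the 6 summed samples, with rows ordered by the sum of the deviations in samples 7-9 and 10-12 and a line between groups. Mt1ko 10-12 holds the deepest colours of both signs, and in complex IV it is mostly below the controls.

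Mt1ko sample 10-12 also joins the least even libraries. The coefficient of variation between its 3 libraries had a median of 35.1% over the 76 members, against 9.18% to 18.1% in the other 5 samples, where counting error alone would give 2.58% to 3.16% in the 6 samples. In 39 of 76 members its libraries differed by more than 2-fold, against 3 to 9 members in the other samples. Genes at a log2 CPM of at least 4 were also least even there, with a median of 32.3% in sample 10-12 and 8.90% to 15.6% elsewhere. Uqcrfs1 had 32.0, 5.49 and 39.0 CPM of all counts in libraries 10, 11 and 12, and Cox4i1 had 76.3, 151.0 and 54.7 CPM, so different libraries were low for different subunits. Fewer genes were detected there, 11548 to 13174 per library, than in the other 14 libraries (14823 to 17739). Libraries 9 and 8 of control sample 7-9 had the fewest of those 14, at 14823 and 15404.

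**Figure D4:**
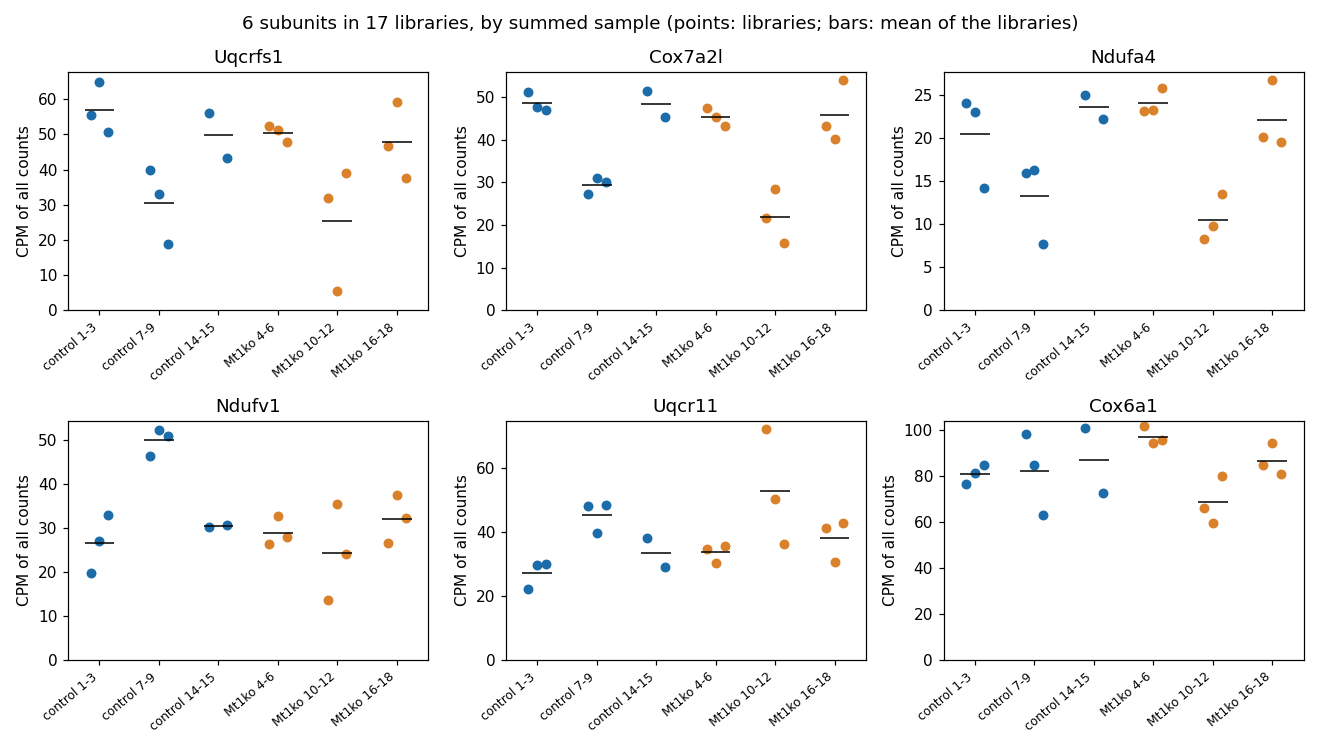
CPM of all counts (y axis, from 0) of 6 subunits in each of 17 libraries, grouped by the summed sample they belong to (blue control, orange Mt1ko), with bars at the mean of the libraries. Uqcrfs1, Cox7a2l and Ndufa4 are low in samples 7-9 and 10-12, Ndufv1 is high in 7-9 only, Uqcr11 is high in both, and Cox6a1 runs from 59.4 CPM in library 11 to 101.6 CPM in library 4.

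The subunits encoded by mitochondrial DNA did not move with the nuclear ones in sample 10-12. Their median deviation there was 0.95 in TMM-scaled values, 0.98 above that of the nuclear members, and they were 11 of 12 higher in Mt1ko with a median log2 fold change of 0.35 and 0 called. In the other 5 samples the 2 sets lay within 0.19 of each other. Of the 13 mitochondrially encoded subunits, mt-Co2 had 0 CPM in all 6 samples and was not tested. Some of the 12 tested were very uneven. mt-Co3 stood at 0.0617, 87.0 and 0.0148 CPM in control and 36.8, 0.0252 and 11.8 CPM in Mt1ko. mt-Atp6 ran from 8.92 to 410.0 CPM. How reads were assigned to these genes was not tested. mt-Co1, a catalytic protein of complex IV, was at 4415, 4344 and 5779 CPM in control and 4603, 11196 and 4896 CPM in Mt1ko. In CPM of all counts, the median nuclear member was 0.30 below the control mean in sample 10-12, and the median of all genes 0.31 below. Libraries 10 to 12 are also those with the high share of mitochondrial ribosomal RNA given above, and the part of RNA quality in this gap was not tested.

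**Figure D5:**
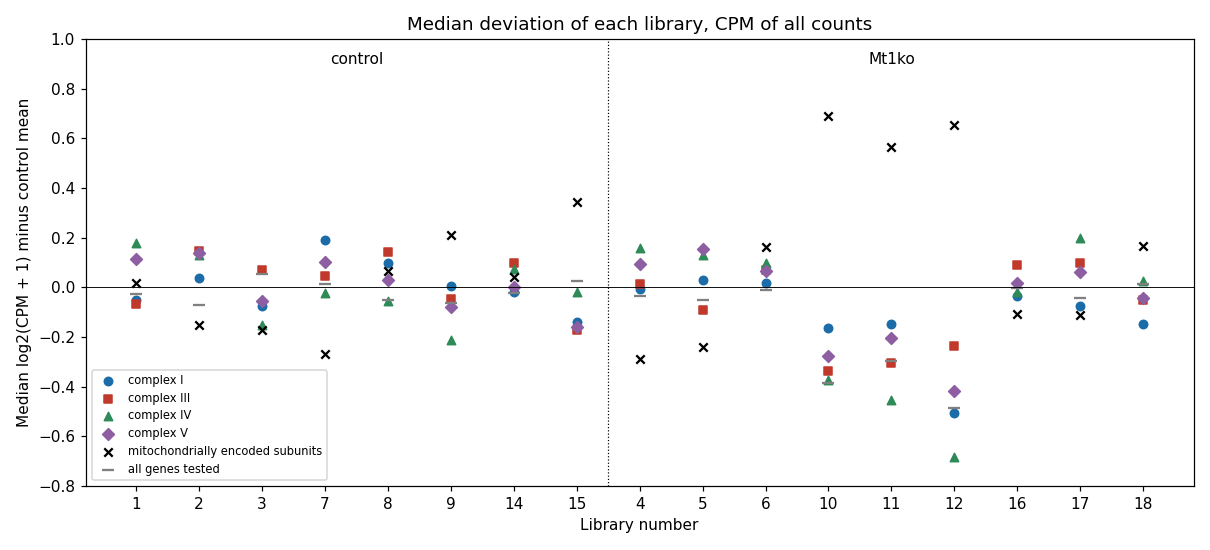
Median over genes of log2(CPM of all counts + 1) minus the control mean, for each library (x axis) and each set of genes. In libraries 10, 11 and 12 the nuclear complexes lie below 0 together with all genes, and the mitochondrially encoded subunits lie above 0.5.

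Other genes of the pathway gave 0 calls in edgeR's test as well. Complex II, the entry from succinate, which is wholly nuclear-encoded, had 3 of 4 subunits higher (median log2 fold change 0.07), with Sdha at 133.8 to 157.0 CPM in all samples. The carriers that exchange ATP, ADP and phosphate across the inner membrane had 3 of 3 tested members higher (median 0.16), with Slc25a5 at 181.6, 98.8 and 148.3 CPM in control and 209.8, 88.5 and 155.2 CPM in Mt1ko, low in samples 7-9 and 10-12. Enzymes of the tricarboxylic acid cycle, which supply NADH, were higher in 9 of 13 (median 0.12). Cytochrome c, cytochrome c1 and the acyl carrier Ndufab1 were higher in 2 of 3 tested genes (median 0.09).

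Assembly factors were split evenly: 8 higher and 8 lower for complex I (median -0.01), 3 and 3 for complex III (median -0.03), 10 and 10 for complex IV (median -0.00). Those of complex V with its inhibitor Atpif1 had 1 higher and 3 lower (median -0.03). Organisers of supercomplexes and cristae had 3 higher and 5 lower (median -0.15), the most negative median of these lists. Regulators of mitochondrial biogenesis had 5 higher and 6 lower (median -0.07), among them the coactivator gene Pprc1 at 86.7, 92.3 and 76.2 CPM in control and 81.2, 47.6 and 73.5 CPM in Mt1ko. Ppargc1a, the coactivator prominent in muscle and brown fat, was at 0 CPM in all 6 samples.

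None of the cell type markers was called, and those of erythroid, B, T and NK cells were sparse. Monocyte and macrophage markers were higher in 9 of 10 (median log2 fold change 0.10), neutrophil markers in 2 of 5 tested, mast cell and basophil markers in 7 of 8 (median 1.66), erythroid markers in 2 of 7 and megakaryocyte and platelet markers in 5 of 5. The mast cell and the platelet lists stood high in sample 10-12, with median deviations of 3.26 and 2.64 from the control mean. In sample 4-6 these were -0.16 and 0.24, and in 16-18 they were -1.39 and -0.84. Stroma and endothelium markers were higher in 2 of 5, and B cell and T and NK cell markers had 1 tested gene each, with summed levels of at most 0.805 and 2.96 CPM.

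Short motifs were counted in the promoters of the subunits, which the choice of members did not use. RefSeq promoters (GRCm38.p6, 250 bases before to 50 after the start) matched 65 of the 84 symbols. A set of 3 motifs known from genes of mitochondrial proteins was searched on both strands: GCGCA and GCGC with 1 free base between them for NRF1, CCGGAAG for ETS factors such as GABP, and AANATGGCG for YY1. NRF1 letters were found in 15 of 65 members (23.1%, against 5.19% of 27025 genes), ETS letters in 15 (23.1%, against 9.93%) and YY1 letters in 10 (15.4%, against 2.76%). At least 1 of the 3 was present in 35 of 65 members (53.8%, against 15.9% of all genes). By complex this was 12 of 15 genes in complex V, 17 of 31 in complex I, 3 of 5 in complex III and 3 of 14 in complex IV. The background was all 27025 genes, with no set matched for expression or base content. Whether the higher shares are particular to these subunits was therefore not tested. A match of letters is a description of the sequence and not a measured site.

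The promoters of 3 members are shown, 5′ to 3′ along the gene, with motif letters in capitals. They are examples with several matches and with none. Cox6a1 has NRF1 letters 2 times and ETS letters once, on the other strand (chr5:115348909-115349208, minus strand). Ndufb4 has NRF1 letters 3 times (chr16:37654319-37654618, minus strand). Uqcrfs1 has none of the 3 motifs in this window (chr13:30545267-30545566, minus strand), and neither have Ndufv3 and Cox5b.
Cox6a1: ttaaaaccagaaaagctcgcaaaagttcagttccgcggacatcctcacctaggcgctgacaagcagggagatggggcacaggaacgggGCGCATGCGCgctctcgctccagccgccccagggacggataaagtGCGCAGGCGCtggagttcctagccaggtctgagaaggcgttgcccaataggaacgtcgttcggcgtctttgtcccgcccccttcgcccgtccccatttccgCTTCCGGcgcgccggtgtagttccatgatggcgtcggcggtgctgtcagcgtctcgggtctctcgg
Ndufb4: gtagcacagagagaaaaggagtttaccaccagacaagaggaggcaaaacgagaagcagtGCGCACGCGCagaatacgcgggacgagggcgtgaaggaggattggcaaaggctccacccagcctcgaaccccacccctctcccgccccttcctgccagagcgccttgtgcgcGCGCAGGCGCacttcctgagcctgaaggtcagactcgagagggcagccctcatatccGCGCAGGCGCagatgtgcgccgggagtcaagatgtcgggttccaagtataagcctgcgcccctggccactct
Uqcrfs1: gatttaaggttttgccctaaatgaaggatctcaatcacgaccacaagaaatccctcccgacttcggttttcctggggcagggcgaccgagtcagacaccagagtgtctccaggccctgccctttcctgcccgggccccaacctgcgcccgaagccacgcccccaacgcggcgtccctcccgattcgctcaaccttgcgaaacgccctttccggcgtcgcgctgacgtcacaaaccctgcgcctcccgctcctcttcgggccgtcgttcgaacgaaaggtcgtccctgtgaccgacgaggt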

How the data were processed

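Per the labels' protocols, total RNA came from an RNeasy Micro column with a DNase step, and a stranded kit for very small inputs of total RNA made the libraries. Trimmomatic 0.35 and RSEM 1.3.3, with the builds GRCm38 and mm10, are named in the submitters' processing notes; the aligner, the strand setting and the way reads were shared between similar genes are not given in any source used here. Raw gene counts, as whole numbers, were deposited by the authors for 17 libraries and for 6 sums of them, and each summed column equalled the sum of the libraries its header names, with 0 genes differing. Library 13, a number absent from the titles, was not analysed here. Groups were taken from the titles. For a repeated symbol, the identifier with the most counts was used.

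The 6 sums entered edgeR 4.0.16 (R 4.3.3) with its filterByExpr filter, TMM factors and the quasi-likelihood F test for group, with Benjamini-Hochberg adjustment over all 16666 genes tested, and calls at an adjusted p under 0.05. Each standard error was the log2 fold change over the square root of F. CPM of sums are TMM-scaled (factors 0.852 in sample 10-12 and 1.00 to 1.05 in the others) and single libraries are given in CPM of all their counts. Deviations use a pseudocount of 1 CPM. Lengths are the median of the principal coding transcripts of GENCODE vM21, or the annotated transcript for the pseudogene Ndufb4c. Near copies were found with blastn 2.17.0. On simulated counts with 200 changed genes of 15783, the test made 127 calls, 5 of them false. Each planted change was 2-fold or larger, so power for smaller differences, such as those of most members, was not simulated. Limits from a count of 0 hold for counting error alone, since PCR copies are not separate molecules. Intervals of fold changes come from the quasi-likelihood fit and so also include the spread between the sums of a group.

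Members and lists were chosen with earlier results of these data known, so lists are described by counts and medians with no test. Named members were, per complex, the 2 with the smallest p in each direction, the highest and lowest level per kilobase, the nuclear core subunits, the isoform sets and the 3 with the widest range over samples. A member that is counted in the totals is not reported here by name or drawn in a plot of named genes. Other members, and genes of other lists, were named after their values were seen. Alternatives were RLE, upper quartile and total-count scaling, the mitochondrially encoded genes left out, no filter and a filter of 1 CPM, DESeq2 1.42.0, limma-voom (limma 3.58.1), 17 libraries singly with and without the second index, a threshold of 0.1, library 6 left out, and each sample left out. Leaving out library 6 and sample 10-12 together was chosen after seeing the data.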

Additional observations from a re-analysis of the deposited data

Results flagged for a closer look

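Within the 8 control or 9 Mt1ko libraries, 1 library stood far from the nearest other in 7 of 76 groups of values examined, where chance gives about 1 in 20 if values are independent, which libraries of the same summed sample are not. Among control libraries, library 9 was the lowest for Atp5pb, a stator subunit of ATP synthase (117.6 CPM, the nearest at 138.3). Cox6b2, the testis isoform of subunit VIb, was highest in control library 14 (0.984 CPM, the nearest at 0.433) and in Mt1ko library 17 (1.69 CPM, the nearest at 0.104), in summed samples with 33 and 57 counts of the gene.

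The other 4 were libraries of Mt1ko sample 10-12. Library 10 was the highest for Uqcr11 (72.1 CPM, the nearest at 50.2). Library 11 was the lowest for the Rieske protein gene Uqcrfs1 (5.49 CPM, the nearest at 32.0), and library 12 was the lowest for the hinge protein gene Uqcrh (26.0 CPM, the nearest at 50.1). The median deviation of complex I was -0.51 in library 12, against -0.17 in the next lowest, on the log2(CPM + 1) scale of all counts.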

How the results depend on the processing

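No subunit was called under any of the alternatives run, while the number of all genes called was 1 instead of 0 with 17 libraries entered singly, with DESeq2, with library 6 left out and with library 6 and sample 10-12 left out, and the gene was Mt1 each time. With total counts only, 13 subunits were higher and their median log2 fold change was -0.0715. Leaving out each sample in turn gave 34 to 51 subunits higher and medians of -0.02 to 0.07. Of 323 alternative fold changes of 18 named members, 0 crossed the threshold and 9, in 5 members, changed sign. These were Cox6a1 (-0.000666) and Uqcrh (-0.0233) with total counts only, and Atp5g2 (0.11), Cox6a2 (0.24) and Uqcrfs1 (0.15) with library 6 and sample 10-12 left out. Without single samples Cox6a2 ranged from -0.73 to 0.81 and Uqcrfs1 from -0.30 to 0.12. Of 504 alternative control levels, 9 moved by more than the spread between samples, all 9 with total counts only. The cause of these changes was not tested. No paired analysis was possible because the groups share no replicate numbers. The scarce isoforms Cox6a2, Cox6b2 and Cox7a1, with 0 to 290 counts a sample, have intervals that span more than a 2-fold difference.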
